A study of Homo sapiens with 6 samples.

Results

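The insulin and IGF receptors, the IRS adaptors and the IGF binding proteins (IGFBPs) were taken from the expression table by gene symbol, which gave 10 genes of the 58676 in the table. They comprise the receptors IGF1R, INSR and IGF2R, the adaptors IRS1 and IRS2, and the binding proteins IGFBP2, IGFBP3, IGFBP4, IGFBP6 and IGFBP7. DCIS.COM is an established human basal-type breast cell line used as a model of ductal carcinoma in situ (DCIS). RNA was sequenced from 3 flasks of NS control cells, transduced with a PLKO.1 lentiviral vector carrying a non-silencing shRNA, and from 3 flasks of BCL9 KD cells, transduced with PLKO.1 carrying a BCL9 shRNA. All flasks were grown in DMEM/F12 with horse serum. BCL9 is a coactivator of β-catenin in Wnt signaling. The sources used here name a single BCL9 shRNA and do not state whether the transduced cells were clones, so differences between the groups belong to this pair of cell populations, and the spread between flasks does not include a second transduction. Where 3 values are given for a group, they follow the order of replicates 1, 2 and 3. The comparison asks how BCL9 knockdown changes the expression of these genes.

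Insulin, IGF1 and IGF2 are hormones that act through the related receptor tyrosine kinases INSR and IGF1R, which can also pair into hybrid receptors. The activated receptors phosphorylate IRS adaptors, which recruit PI3K and so switch on AKT and mTOR. IGFBPs hold IGFs outside the cell and can limit or prolong their access to IGF1R, and IGF2R removes IGF2 and carries enzymes tagged with mannose 6-phosphate to lysosomes. In the breast, IGF signaling is known for its part in growth of the ductal epithelium.

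In BCL9 KD cells, the mean level of INSR fell by 45.6%, while that of IGFBP3 rose by 63.4% and that of IGFBP6 by 91.4%. The other 7 genes did not pass the test. Thus 3 of 10 genes were called, 2 higher and 1 lower, at a limma adjusted p under 0.05. Over all 13745 genes tested, 5.87% were called, 2.96% higher and 2.91% lower. The values of the groups did not overlap for 5 of the 10 genes, against 34.2% of all genes tested. The median log2 fold change of the 10 genes was −0.06, and it was 0.04 over all genes tested. The list holds family genes that these cells express, since all 10 had a mean of at least 0.5 FPKM, and it leaves out those with little or no signal.

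BCL9 itself had 6.25, 6.24 and 5.34 FPKM in NS control samples, and 2.86, 2.78 and 2.59 FPKM in BCL9 KD samples, so the target of the shRNA was lower in each BCL9 KD sample. FPKM here scales the reads of a gene to its length and to the reads of the library that were counted on genes. Depth was between 15222452 and 22712638 reads on genes in NS control and between 15665714 and 26949026 in BCL9 KD samples. Of 6 basal epithelial markers (KRT5, KRT6A, KRT14, KRT17, TP63 and EGFR), all were expressed, with a summed level of 985 to 1153 FPKM in NS control and 1019 to 1072 FPKM in BCL9 KD samples. Estrogen and progesterone receptor transcripts (ESR1 and PGR) were under 0.5 FPKM, with PGR at 0, whereas the luminal factors GATA3 and FOXA1 were expressed, and the summed luminal level was 10.7 to 12.3 FPKM in NS control and 10.4 to 11.5 FPKM in BCL9 KD samples. The immune markers PTPRC, CD3E and CD68 summed to at most 0.0583 FPKM in any sample, the 3 adipocyte markers (ADIPOQ, PLIN1 and LEP) to at most 0.172 FPKM, and the 5 fibroblast markers (COL1A1, COL3A1, PDGFRA, PDGFRB and DCN) to 0.694 to 0.720 FPKM in NS control and 0.744 to 0.905 FPKM in BCL9 KD samples. Of the endothelial markers, CDH5 and KDR were under 0.5 FPKM, and PECAM1 had 2.28, 2.29 and 1.72 FPKM in NS control and 3.91, 3.11 and 3.32 FPKM in BCL9 KD samples (log2 fold change 0.61, limma adjusted p = 0.0477). The 3 endothelial markers summed to 1.79 to 2.40 FPKM in NS control and 3.20 to 4.04 FPKM in BCL9 KD samples, and any part of these marker levels in the results was not tested.

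The start regions of the 3 called genes are shown because they are the members whose transcript levels passed the test, INSR in one direction and IGFBP3 and IGFBP6 in the other. Each is the run of 250 bases before the RefSeq transcription start site on GRCh38.p14, written 5′ to 3′ on the strand of the gene. Capitals mark GGGCGG or its complement CCGCCC, the letters of a GC box. The INSR stretch is on the minus strand at chr19:7294415-7294664, IGFBP3 on the minus strand at chr7:45921273-45921522, and IGFBP6 on the plus strand at chr12:53097417-53097666. The expression table starts IGFBP3 and IGFBP6 upstream of the RefSeq site, so these stretches lie partly or wholly within the gene spans used for counting.
INSR: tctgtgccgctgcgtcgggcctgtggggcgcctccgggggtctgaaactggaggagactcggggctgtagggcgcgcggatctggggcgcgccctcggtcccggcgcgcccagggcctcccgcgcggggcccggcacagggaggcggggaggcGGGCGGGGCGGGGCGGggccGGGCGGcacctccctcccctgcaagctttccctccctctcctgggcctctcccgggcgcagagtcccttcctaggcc
IGFBP3: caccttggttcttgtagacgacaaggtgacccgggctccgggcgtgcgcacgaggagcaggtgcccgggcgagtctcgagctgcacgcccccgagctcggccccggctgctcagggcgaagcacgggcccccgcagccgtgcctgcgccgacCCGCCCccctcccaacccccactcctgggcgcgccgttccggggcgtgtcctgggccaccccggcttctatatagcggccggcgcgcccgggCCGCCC
IGFBP6: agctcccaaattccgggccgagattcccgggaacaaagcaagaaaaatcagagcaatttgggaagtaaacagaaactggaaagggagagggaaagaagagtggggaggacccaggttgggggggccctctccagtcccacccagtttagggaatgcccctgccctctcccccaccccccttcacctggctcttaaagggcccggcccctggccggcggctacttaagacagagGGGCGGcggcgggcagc

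RefSeq windows that span 250 bases before and 50 after the start were matched for 9 of the 10 genes (11 windows, 3 of them for IGFBP2), and IGFBP7 had no entry. The INSR window is 78.3% G and C, higher than 95.7% of the 35116 windows of this length, IGFBP3 has 74.7% and IGFBP6 61.7%. GGGCGG was found 4 times in the INSR window, where 3 of the matches overlap in a row, 2 times for IGFBP3 and 1 time for IGFBP6 on either strand, and 45.0% of all windows hold it. The windows of IGF2R, with 6 matches, IRS2, with 5, and IRS1, with 4, were similar to that of INSR in this count, although these genes were not called. The letters TTCNNNGAA, a STAT site, were in none of the 11 windows and in 7.66% of all windows on either strand. The TCF/LEF letters CTTTGAT and CTTTGAA were likewise absent from the 11 windows and present in 2.62% and 4.43% of all windows. TATAAA was found in the IGFBP4 window and in 11.5% of all windows. These matches describe letters in a short window and carry no measure of binding.

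Of the receptors, INSR fell and IGF1R and IGF2R did not pass the test, although the estimates of all 3 were below 0. INSR (ENSG00000171105), the insulin receptor, lies on chromosome 19 of hg38 from 7112255 to 7294034 on the minus strand. It had 5.42, 4.80 and 4.34 FPKM in NS control samples and 3.26, 2.20 and 2.45 FPKM in BCL9 KD samples. These values rest on 1287, 1015 and 690 reads and on 602, 621 and 401 reads. Every BCL9 KD value was below every NS control value, and BCL9 KD replicate 1 was the nearest to the controls. NS control samples averaged 4.85 ± 0.544 FPKM and BCL9 KD samples 2.64 ± 0.552 FPKM (SD, n = 3 each). The log2 fold change was −0.78 (standard error 0.146, 95% interval −1.13 to −0.43, limma adjusted p = 0.0356), measured on log2(FPKM + 0.5). A two-sided exact permutation test gave p = 0.1, the smallest value that 3 samples against 3 can give. The log2 fold change stayed between −0.92 and −0.68 over 18 other settings, and 10 of them gave an adjusted p under 0.05 in limma, with a range from 0.0130 to 0.162.

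IGF1R (ENSG00000140443), the receptor for IGF1 and IGF2, lies on chromosome 15 from 98648971 to 98964530. It had 16.0, 16.7 and 13.6 FPKM in NS control and 14.3, 10.7 and 11.2 FPKM in BCL9 KD samples. BCL9 KD replicate 1 was above NS control replicate 3, so the groups overlapped. The log2 fold change was −0.35 (standard error 0.131, 95% interval −0.66 to −0.04, limma adjusted p = 0.142), and the adjusted p was between 0.0645 and 0.377 over the 18 other settings.

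IGF2R (ENSG00000197081), on chromosome 6 from 159969099 to 160113507, was the most highly expressed of the 10 genes by its mean over the 6 samples, higher than 91.0% of the genes tested, although IGFBP3 exceeded it in BCL9 KD replicates 2 and 3. Its values were 34.7, 36.9 and 32.2 FPKM in NS control and 32.8, 28.5 and 28.4 FPKM in BCL9 KD samples. The groups overlapped, since BCL9 KD replicate 1 exceeded NS control replicate 3. The log2 fold change was −0.21 (standard error 0.0875, 95% interval −0.41 to 0.00074, limma adjusted p = 0.183).

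**Figure D1:**
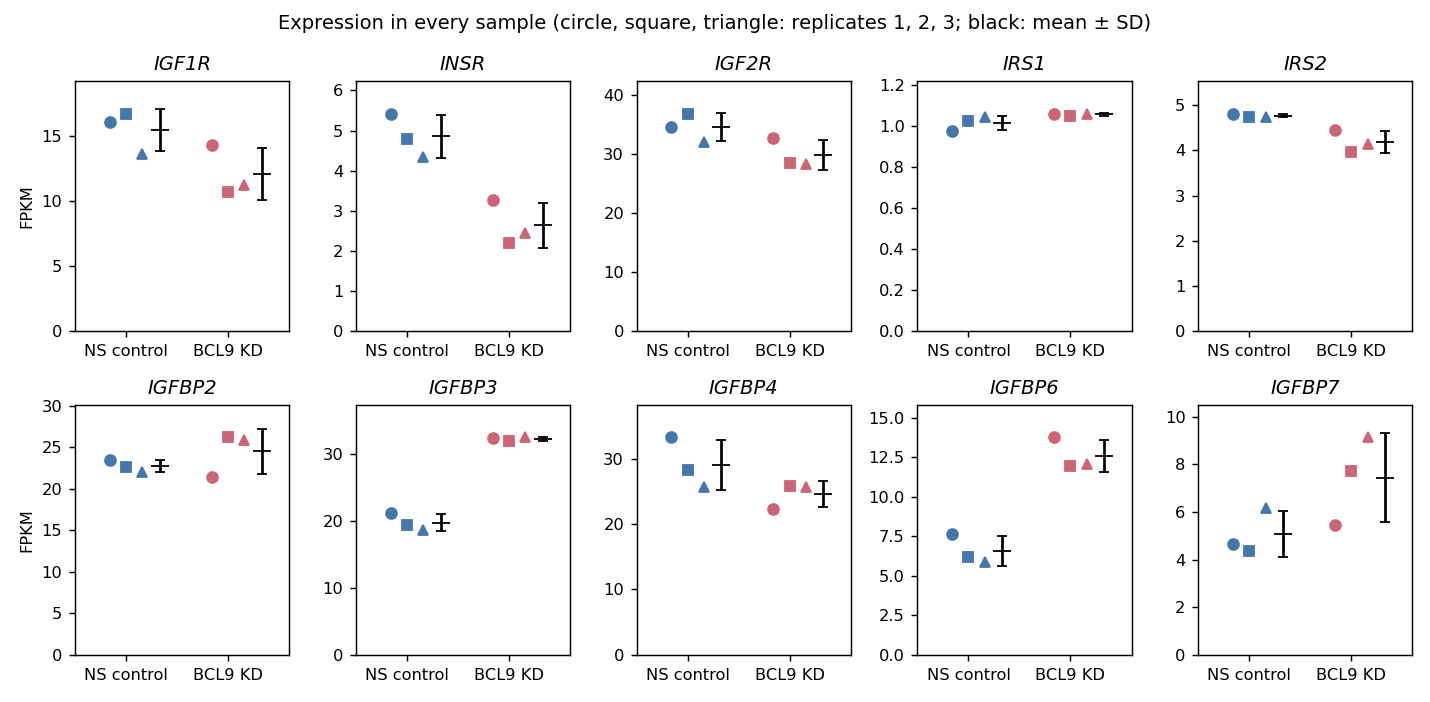
FPKM of the 10 genes in each sample, with a vertical axis from 0 in every panel, blue for NS control, red for BCL9 KD, marker shapes for replicates 1 to 3, and black bars for the mean ± SD of 3 samples. INSR, IGFBP3 and IGFBP6 show groups that lie apart, and the groups of IRS1 and IRS2 do not overlap either, with small differences. BCL9 KD replicate 1 sits within or near the control range for IGF1R, IGF2R, IGFBP2 and IGFBP7.

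The balance of both tyrosine kinase receptors was compared within each sample, where depth cancels. The cells held more IGF1R than INSR transcript per length in every sample. INSR per IGF1R was 0.339, 0.288 and 0.319 in NS control and 0.228, 0.207 and 0.219 in BCL9 KD samples, with no overlap between the groups. The mean ratio was 0.315 ± 0.0256 (SD, n = 3) in NS control and 0.218 ± 0.0106 (SD, n = 3) in BCL9 KD cells. IGF2R per IGF1R was 2.16, 2.21 and 2.36 in NS control and 2.29, 2.68 and 2.54 in BCL9 KD samples, and these groups overlapped. The ratios were described and not tested.

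The IRS adaptors did not pass the test. IRS1 (ENSG00000169047, chromosome 2, 226731317 to 226799759) and IRS2 (ENSG00000185950, chromosome 13, 109752698 to 109786568) dock PI3K to the activated receptors. IRS2 had 4.81, 4.74 and 4.75 FPKM in NS control and 4.45, 3.97 and 4.14 FPKM in BCL9 KD samples. Each BCL9 KD value was below each NS control value, and the difference was small, with a log2 fold change of −0.17 (standard error 0.0778, 95% interval −0.35 to 0.02, limma adjusted p = 0.214). IRS1 was the least expressed of the 10 genes, higher than 15.6% of the genes tested, with 0.973, 1.02 and 1.04 FPKM in NS control and 1.06, 1.05 and 1.06 FPKM in BCL9 KD samples. The groups did not overlap, yet their means differed by 4.08%, and the log2 fold change was 0.04 (95% interval −0.24 to 0.32, limma adjusted p = 0.851), with −0.04 under quantile normalization and 0.02 without NS control replicate 1. With a correction of each sample for GC content it was −0.07 for IRS2 and 0.10 for IRS1. The IRS1 values rest on 158 to 220 reads in NS control and 165 to 281 reads in BCL9 KD samples. IRS2 transcript per IRS1 transcript was 4.94, 4.63 and 4.55 in NS control and 4.21, 3.79 and 3.91 in BCL9 KD samples.

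**Figure D2:**
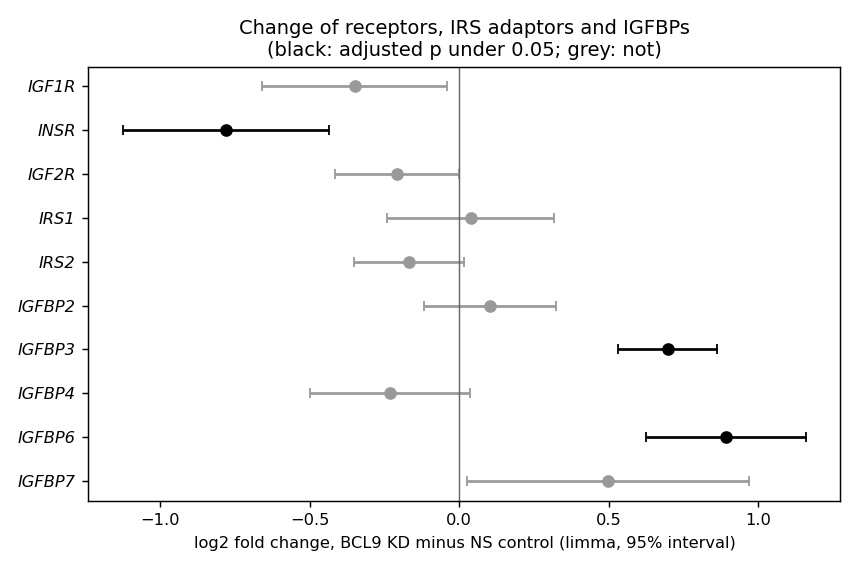
Log2 fold change (BCL9 KD minus NS control, horizontal axis) of each gene from limma on log2(FPKM + 0.5), with points for estimates and bars for 95% intervals that are not adjusted for multiple tests. INSR at −0.78, IGFBP3 at 0.70 and IGFBP6 at 0.89 are black because their adjusted p was under 0.05, and the other 7 genes are grey.

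Among the binding proteins, IGFBP3 and IGFBP6 rose, and IGFBP2, IGFBP4 and IGFBP7 did not pass the test. IGFBP3 (ENSG00000146674), the main carrier of IGFs in serum, lies on chromosome 7 from 45912245 to 45921874. It had 21.2, 19.4 and 18.7 FPKM in NS control and 32.4, 32.0 and 32.5 FPKM in BCL9 KD samples, resting on 1300 to 2199 and on 2328 to 3940 reads. All BCL9 KD values were above all NS control values, and the BCL9 KD flasks lay within a ratio of 1.02 of each other. NS control samples averaged 19.8 ± 1.28 FPKM and BCL9 KD samples 32.3 ± 0.276 FPKM (SD, n = 3 each). The log2 fold change was 0.70 (standard error 0.0702, 95% interval 0.53 to 0.86, limma adjusted p = 0.00942).

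IGFBP6 (ENSG00000167779), which binds IGF2 in preference to IGF1, lies on chromosome 12 from 53097436 to 53102345. It had 7.64, 6.18 and 5.91 FPKM in NS control and 13.8, 11.9 and 12.1 FPKM in BCL9 KD samples. The lowest BCL9 KD value was well above the highest NS control value, although as a short gene it rested on only 115 to 222 reads in NS control and 242 to 411 reads in BCL9 KD samples. NS control samples averaged 6.58 ± 0.932 FPKM and BCL9 KD samples 12.6 ± 1.02 FPKM (SD, n = 3 each), a 1.91-fold difference. Its log2 fold change was 0.89 (standard error 0.113, 95% interval 0.62 to 1.16, limma adjusted p = 0.0148). For both IGFBP3 and IGFBP6 the two-sided exact permutation p was 0.1, the smallest possible here. Over the 18 other settings, the log2 fold change ran from 0.66 to 0.77 for IGFBP3 and from 0.82 to 1.00 for IGFBP6, and each had a limma adjusted p under 0.05 in 14, with ranges of 0.00174 to 0.0802 and 0.00403 to 0.0981.

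IGFBP4 (ENSG00000141753, chromosome 17, 40443461 to 40457731), an inhibitor of IGF action, had 33.2, 28.2 and 25.6 FPKM in NS control and 22.3, 25.8 and 25.7 FPKM in BCL9 KD samples. The groups overlapped, and the log2 fold change was −0.23 (95% interval −0.50 to 0.04, limma adjusted p = 0.235) and −0.13 without NS control replicate 1. IGFBP2 (ENSG00000115457, chromosome 2, 216632828 to 216664436), which binds IGF2 as well as IGF1, had 23.4, 22.6 and 22.0 FPKM in NS control and 21.4, 26.2 and 25.9 FPKM in BCL9 KD samples. BCL9 KD replicate 1 was the lowest of all 6 samples and replicates 2 and 3 the highest, so the groups overlapped, and the log2 fold change was 0.10 (95% interval −0.12 to 0.32, limma adjusted p = 0.496). It was 0.20 without BCL9 KD replicate 1, 0.05 without BCL9 KD replicate 2, 0.06 without BCL9 KD replicate 3 and 0.19 with a correction of each sample for GC content.

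IGFBP7 (ENSG00000163453, chromosome 4, 57030773 to 57110385) is a secreted protein that binds IGFs weakly. It had 4.65, 4.38 and 6.16 FPKM in NS control and 5.45, 7.73 and 9.13 FPKM in BCL9 KD samples. BCL9 KD replicate 1 was below NS control replicate 3, and the BCL9 KD samples spread over a 1.67-fold range, the widest within a group among the 10 genes. The log2 fold change was 0.50 (standard error 0.199, 95% interval 0.03 to 0.97, limma adjusted p = 0.163). Its span overlaps that of POLR2B on the opposite strand by 396 bases, and reads there could be shared or dropped, since the strand setting of the counting is not given. POLR2B had 22.9 to 29.0 FPKM in NS control and 27.3 to 28.5 FPKM in BCL9 KD samples.

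Of the summed FPKM of the 5 IGFBPs, the shares of IGFBP2, IGFBP3, IGFBP4 and IGFBP6 did not overlap between the groups, while those of IGFBP7 did. The shares depend on each other, since a higher share of 1 gene lowers the rest. The 5 IGFBPs together had 90.2, 80.8 and 78.4 FPKM in NS control and 95.3, 104 and 105 FPKM in BCL9 KD samples. In all NS control samples IGFBP4 was the most abundant, with 36.9%, 34.9% and 32.7% of the summed FPKM, and in all BCL9 KD samples it was IGFBP3, with 34.0%, 30.9% and 30.9%. The share of IGFBP3 was 23.8 ± 0.269% (SD, n = 3) in NS control and 31.9 ± 1.81% (SD, n = 3) in BCL9 KD cells, and that of IGFBP6 was 7.89 ± 0.514% and 12.5 ± 1.71% (SD, n = 3 each). IGFBP4 held 34.8 ± 2.10% in NS control and 24.2 ± 0.773% in BCL9 KD cells (SD, n = 3 each), a share that also depends on the sum. IGFBP3 per IGFBP4 was 0.637, 0.688 and 0.729 in NS control and 1.45, 1.24 and 1.26 in BCL9 KD samples. This pair was not planned, and it sets a called gene against the only IGFBP here with an estimate below 0. IGFBP6 per IGFBP7 was 1.64, 1.41 and 0.959 in NS control and 2.52, 1.54 and 1.32 in BCL9 KD samples, and these groups overlapped. Shares and ratios were not tested.

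**Figure D3:**
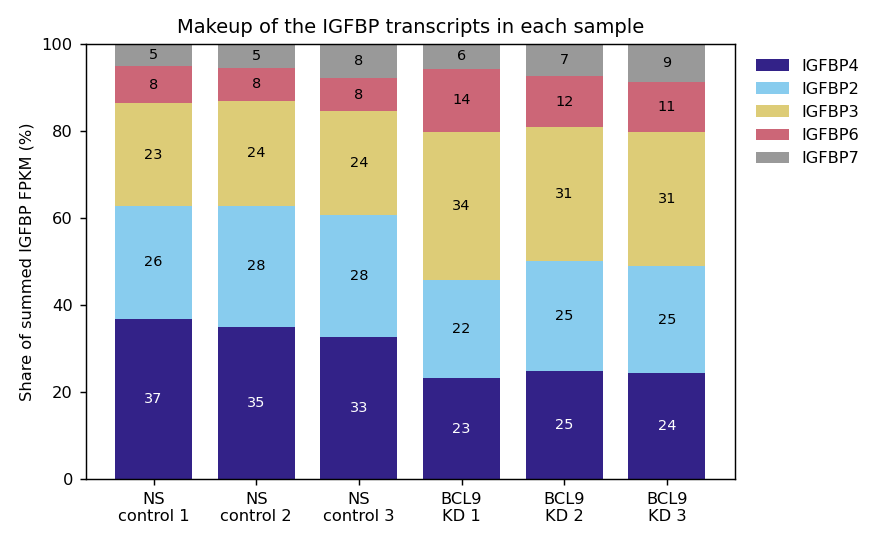
Share of each IGFBP in the summed FPKM of the 5 genes (vertical axis, percent), with a stacked bar for each of the 6 samples and rounded shares printed in the segments. IGFBP4 is the largest segment in the 3 NS control bars, and IGFBP3 is the largest in the 3 BCL9 KD bars.

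**Figure D4:**
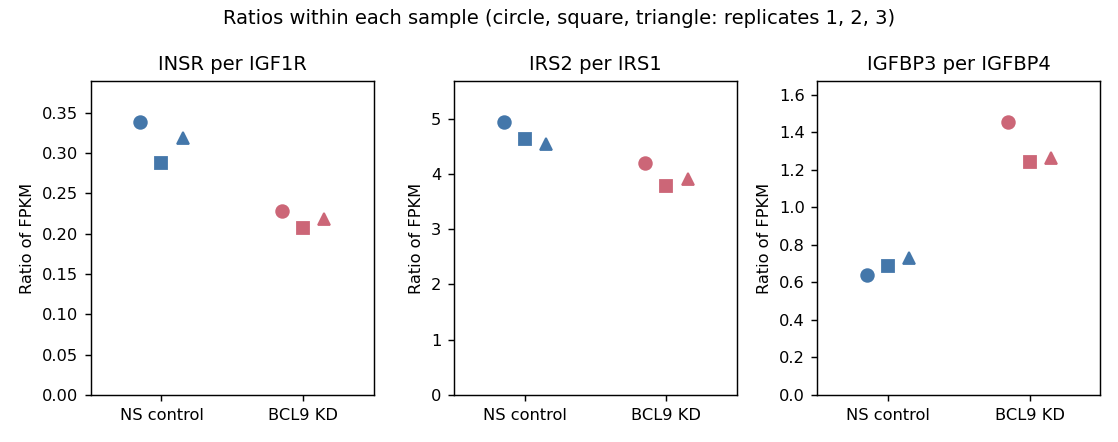
Ratios of FPKM between a pair of genes within each sample (vertical axes from 0), with blue for NS control, red for BCL9 KD and marker shapes for replicates 1 to 3. INSR per IGF1R and IRS2 per IRS1 lie lower in the BCL9 KD samples and IGFBP3 per IGFBP4, a pair that was not planned, lies higher, without overlap. IGF2R per IGF1R and IGFBP6 per IGFBP7, which overlapped between the groups, are not drawn.

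By level per length over all 6 samples, the order was IGF2R at a mean of 32.3 FPKM, then IGFBP4 at 26.8, IGFBP3 at 26.0, IGFBP2 at 23.6, IGF1R at 13.7, IGFBP6 at 9.58, IGFBP7 at 6.25, IRS2 at 4.48, INSR at 3.75 and IRS1 at 1.03 FPKM. The order of IGFBP3 and IGFBP2 differed between the groups, since IGFBP2 was above IGFBP3 in every NS control sample, and IGFBP6 was above IGF1R in BCL9 KD replicates 2 and 3 only. In NS control cells the values of INSR (4.34 to 5.42 FPKM) spanned those of IRS2 and overlapped those of IGFBP7, so these neighbours could not be ordered. In BCL9 KD cells every INSR value was below every IRS2 value. IGFBP2 and IGFBP4 also overlapped each other in BCL9 KD cells, whereas IGFBP3 was above both in each BCL9 KD sample. As the samples are bulk RNA, fewer cells expressing a gene and less of its RNA per cell cannot be told apart.

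The rest of the family had few or no counted reads. IGF1 had 3 reads in total over the 6 samples, IRS4 had 5 and INSRR, the insulin receptor-related receptor, had 3. IGFBP1 and IGFBPL1 had 0 reads, which allows up to 0.119 FPKM for IGFBP1 and 0.180 FPKM for IGFBPL1 in the shallowest library (3 reads, counting error only). IGFBP5 had 0.130 to 0.248 FPKM. IGFALS, the acid-labile subunit of the serum IGF complex, was listed at 0.0186 to 0.243 FPKM, but it overlaps SPSB3 on the same strand by 3288 bases, so its level is not known. IGFBP1 lies 18576 bases from IGFBP3 and IGFBP5 lies 7668 bases from IGFBP2, so each of these expressed genes neighbours a family member with little signal. IGF2 and INS are listed at 0 in all samples, but both overlap the read-through gene INS-IGF2 on the same strand, also listed at 0. IGF2 also has more than 1 entry, and its entries overlap each other on the same strand by 12127 bases. Reads that fit more than 1 gene may have been dropped in counting, so the levels of IGF2 and INS are not known. None of these 9 genes reached a mean of 0.5 FPKM, and none was tested.

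Of 72 other genes of the pathway, 57 were tested, and 2 were called higher and 2 lower, or 7.02% against 5.87% of all genes tested, a share near the background. Their median log2 fold change was −0.02, and it was 0.04 over all genes. Of the IGFBP proteases and stanniocalcins, 1 of 3 tested genes was called. HTRA1, a secreted serine protease known to cleave IGFBP5, had 35.6, 31.9 and 31.1 FPKM in NS control and 43.6, 48.6 and 47.1 FPKM in BCL9 KD samples. The BCL9 KD values were all above the NS control values, and the log2 fold change was 0.49 (limma adjusted p = 0.0275). STC1 and STC2, inhibitors of the IGFBP proteases PAPPA and PAPPA2, had log2 fold changes of −0.17 and 0.01 and were not called, and both proteases were under 0.5 FPKM.

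Among 16 genes of the mTOR list, all tested, 1 was called higher and 2 lower, or 18.8% against 5.87% of all genes tested, and the groups did not overlap for 10 (62.5%, against 34.2%). The median log2 fold change of the list was 0.06, beside 0.04 over all genes. EIF4EBP2, a repressor of cap-dependent translation that mTOR inactivates, had 25.8, 24.9 and 22.1 FPKM in NS control and 15.7, 14.2 and 13.7 FPKM in BCL9 KD samples, with no overlap. The change was −0.72 on the log2 scale (limma adjusted p = 0.0138). RPTOR, the scaffold of mTOR complex 1, had 13.6, 12.7 and 11.1 FPKM in NS control and 9.65, 8.07 and 8.12 FPKM in BCL9 KD samples. The groups lay apart, and the log2 fold change was −0.51 (limma adjusted p = 0.0466), which passed in 9 of 18 other settings. DEPTOR, an inhibitor of mTOR, had 4.47, 3.83 and 3.96 FPKM in NS control and 6.99, 6.13 and 6.31 FPKM in BCL9 KD samples, all higher, and its log2 fold change was 0.61 (limma adjusted p = 0.0225). TSC2, a brake on mTOR complex 1, had a log2 fold change of −0.39 and a limma adjusted p of 0.0566. Over the 18 other settings, EIF4EBP2 passed in 14, DEPTOR in 13 and HTRA1 in 12, and with no filter on FPKM the calls of DEPTOR and HTRA1 were lost, as was that of HTRA1 without the trend. RICTOR, the scaffold of mTOR complex 2, spread from 0.881 to 3.57 FPKM within NS control, a 4.06-fold range, against 1.40-fold within BCL9 KD samples.

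None of the 14 tested receptor-proximal genes, 13 tested PI3K and AKT genes, 5 tested FOXO and GSK3 genes, 4 mannose 6-phosphate pathway genes or 2 tested IGF2 mRNA-binding proteins was called by limma. The largest estimate in size was 0.61 for GRB14, an adaptor that inhibits INSR, with 1.38, 1.92 and 1.91 FPKM in NS control and 2.93, 2.35 and 3.52 FPKM in BCL9 KD samples (limma adjusted p = 0.0730). FOXO3 had −0.21 (limma adjusted p = 0.178), GNPTAB, which makes the mannose 6-phosphate tag, 0.16 (limma adjusted p = 0.543) and IGF2BP3 0.11 (limma adjusted p = 0.659). PIK3R2 was listed at up to 0.0141 FPKM and overlaps AC007192.4 on the same strand, so its level is not known.

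**Figure D5:**
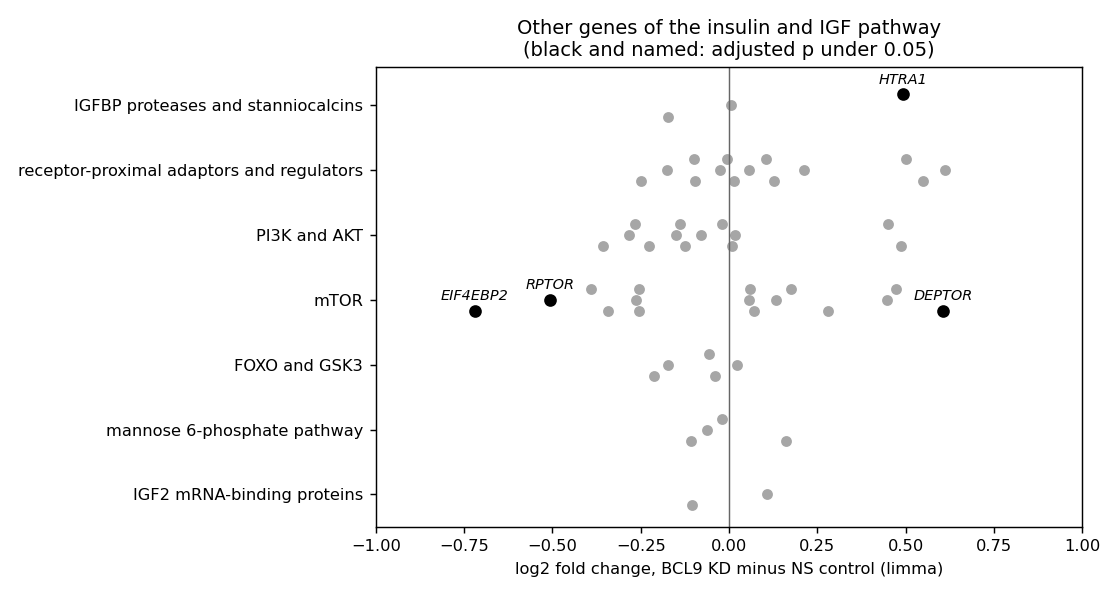
Log2 fold change (BCL9 KD minus NS control, horizontal axis) of the 57 tested pathway genes, a point per gene, in rows by list, with black named points for an adjusted p under 0.05 and grey for the rest. HTRA1 and DEPTOR lie to the right, EIF4EBP2 and RPTOR to the left, and the others spread on both sides of 0.

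The calls depended on single libraries. Without NS control replicate 2, BCL9 KD replicate 2 or BCL9 KD replicate 3, 0 of the 10 genes and 0 pathway genes were called by limma, and 12, 13 and 5 of all genes tested were, with 2620, 2409 and 2330 at an unadjusted p under 0.05. Without NS control replicate 1, INSR had a limma adjusted p of 0.0552 and RPTOR was not called either, while IGFBP3 and IGFBP6 were. Without NS control replicate 3 or BCL9 KD replicate 1, all 3 genes were called. The log2 fold changes in these 6 fits were −0.92 to −0.68 for INSR, 0.66 to 0.75 for IGFBP3 and 0.82 to 1.00 for IGFBP6.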

How the data were processed

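RNA from 3 NS control and 3 BCL9 KD flasks was sequenced as paired-end libraries, prepared with a NEBNext Ultra kit. The authors aligned reads with STAR to hg38 and counted them per gene with HTSeq 0.6.1. They deposited FPKM for 58676 genes, together with the gene length (other units, bases) behind it. The study used a count test, whereas FPKM were tested here. FPKM times gene length gave whole reads within a tolerance of 0.1 for 100% of values above 0 in every sample, which gave the reads per gene and the depth. The upper limits for genes with 0 reads cover counting error only. The 95% intervals come from limma, which combines the spread of a gene between flasks with that of other genes tested at similar levels. For IRS1 the standard error was 0.118, and it was 0.0711 without the trend.

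BCL9 KD was compared with NS control by limma 3.58.1 (R 4.3.3) using the mean-variance trend, on log2(FPKM + 0.5), over the 13745 genes whose mean reached 0.5 FPKM. The added value understates changes of low genes. P-values were adjusted by Benjamini-Hochberg over all genes tested, with a threshold of 0.05, and single members were also compared by exact permutation (scipy 1.17.1). No sample was left out, and replicates had correlations of 0.964 to 0.987 across genes.

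The members and lists were chosen with earlier results of these data known. Named genes were all members, BCL9, the listed markers, every called pathway gene, otherwise the largest change of a list, and the untested genes of the rest of the family. TSC2, RICTOR, STC1, STC2, PAPPA, PAPPA2, POLR2B and PIK3R2 fall outside this rule, and their values had been seen when they were chosen. Results of 2 listed genes are not reported here. Alternatives were other added values, filters, scalings, limma settings, voom on recovered reads, a replicate block and leaving out samples. A loess GC correction (span 0.3, GC known for 98.8% of genes tested, transcripts of GRCh37), with and without the block, was chosen after seeing the data. Promoter windows came from RefSeq (GRCh38.p14). The motifs GGGCGG and TATAAA were also chosen after seeing the data. The ratios IGFBP3 per IGFBP4, IGFBP6 per IGFBP7 and IGF2R per IGF1R were not planned.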

Additional observations from a re-analysis of the deposited data

How the results depend on the processing

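Over 18 other settings, the direction of all 10 members was kept except for IRS1, whose log2 fold change was −0.0437 with quantile normalization. The 3 called members were 2 with no filter on FPKM, without the trend, with the GC correction and replicate block together and without NS control replicate 1. INSR was the one lost each time. Leaving out single replicates gave between 0 and 3 called members, between 0 and 9 called pathway genes and between 5 and 1712 called genes over the table, and the cause was not tested. The count over the table, 807 here, was 142 with no filter (30731 genes tested), 332 without the trend, 1403 with voom and 1605 with the GC correction. With these, pathway genes called were 1 with no filter, 2 without the trend and 7 with the GC correction. Samples of both groups carry numbers 1 to 3. Same-numbered samples had correlations of −0.147, −0.0884 and −0.00287 in their deviations from the group means. With 3 samples per group, these values cannot decide whether same-numbered samples were handled together. With the replicate block, 0 genes over the table, 0 members and 0 pathway genes were called by limma, with 3235 genes at an unadjusted p under 0.05, and with the GC correction and replicate block 154 genes were, 68.8% of them higher in BCL9 KD against 50.4% in the reported comparison. IGFBP6, IGFBP7 and IRS1 rest on the fewest reads, 115 to 411 per sample, while the largest standard error of a member was that of IGFBP7 (0.199), followed by INSR (0.146).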
